A study of Mus musculus with 24 samples.

Results

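The genes described here encode 10 receptors through which myeloid cells sense attractants: the complement receptors C5ar1 and C3ar1, the formyl peptide receptors Fpr1 and Fpr2, the lipid mediator receptors Ptafr and Ltb4r1, and the chemokine receptors Cxcr2, Cxcr4, Ccr1 and Ccr2. They were found by gene symbol, and all 10 were present among the 53465 genes of the deposited count table. RNA came from RN2, a mouse acute myeloid leukaemia line of genotype Mll-Af9; NrasG12D, kept in culture. Each cell population carried 1 retroviral short hairpin RNA (shRNA) that doxycycline switches on. The hairpins were shOgdh346 (clones 1 and 5) and shOgdh2081 (clones 3 and 5), both against Ogdh, a subunit of the alpha-ketoglutarate dehydrogenase complex of the tricarboxylic acid cycle, and the control shRen713 (clones 2 and 7). Each clone was sequenced after 4 days of doxycycline and, untreated, at day 0, with 2 libraries per clone and day, which gives 24 libraries in 6 groups of 4.

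All 10 are receptors with 7 transmembrane segments, and most of them couple mainly to inhibitory (Gi) G proteins. A bound ligand sets free G protein subunits that act on phospholipase C, phosphoinositide 3-kinase and the actin cytoskeleton, and the cell crawls towards the source. Receptor kinases and arrestins then switch the receptor off. In the myeloid lineage several of these receptors are low in progenitors and abundant in mature neutrophils or monocytes, while Cxcr4 holds immature cells in the bone marrow and Ccr2 lets monocytes leave it.

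Library totals ran from 7209186 to 20705468 counts. Levels are CPM, counts scaled to a common library size after TMM adjustment. The replicate is the clone. The labels do not say whether the 2 libraries of a clone and day came from separate cultures, so their counts were summed before testing, and p-values measure the spread between clones. A net change is the log2 change from day 0 to day 4 in clones with an Ogdh hairpin minus that in control clones, fitted in edgeR (quasi-likelihood F-test), with p adjusted over 14249 genes by the Benjamini-Hochberg method, and a gene was called at an adjusted p under 0.05. The target gene itself had 48.6 ± 16.5 CPM at day 4 with the Ogdh hairpins (SD, n = 4 clones) and 225 ± 27.8 CPM with shRen713 (SD, n = 2 clones), with a net change of -1.76 ± 0.18 (SE, adjusted p = 0.000400). Before doxycycline Ogdh had 163 ± 34.2 CPM in the Ogdh-hairpin clones and 228 ± 27.4 CPM in the control clones. The day 0 libraries of shOgdh346 had 126 to 150 CPM, all below the 202 to 250 CPM of shRen713. This day 0 difference was not called, and the baseline of a net change includes it. Myeloid genes were well expressed, with 13 markers summing to 6478 to 9731 CPM at day 4 with the Ogdh hairpins and 7220 to 8913 CPM with shRen713.

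With Ogdh knockdown 7 of the 10 receptors rose relative to the control and none fell. These were C5ar1, C3ar1, Fpr2, Ptafr, Ltb4r1, Cxcr4 and Ccr1. Fpr2 passed the filter on low counts only through the day 4 sums with an Ogdh hairpin, where it was high. Its call thus carries no weight of its own in this count. Over all genes tested, 17.9% were called higher, 19.8% lower and 37.7% in either direction. The median net change of the 10 was 1.94, beside -0.00 over all genes. Fpr1 and Cxcr2 had net changes of 4.57 and 1.96 that missed the threshold, and Ccr2 had a net change of -1.25 that also missed it. The count was 3 without shRen713 clone 2, 3 without shRen713 clone 7, 4 without the day 0 replicate 2 library of that clone, and 4 without the clone as a block. Far fewer genes were called over all genes too when either control clone or the clone block was left out. Only slightly fewer were called without the day 0 replicate 2 library of clone 7. C5ar1 and Ltb4r1 were called under all 38 alternatives tried. In bulk RNA, a change in the share of cells that carry a receptor and a change in its RNA per cell cannot be told apart.

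**Figure D1:**
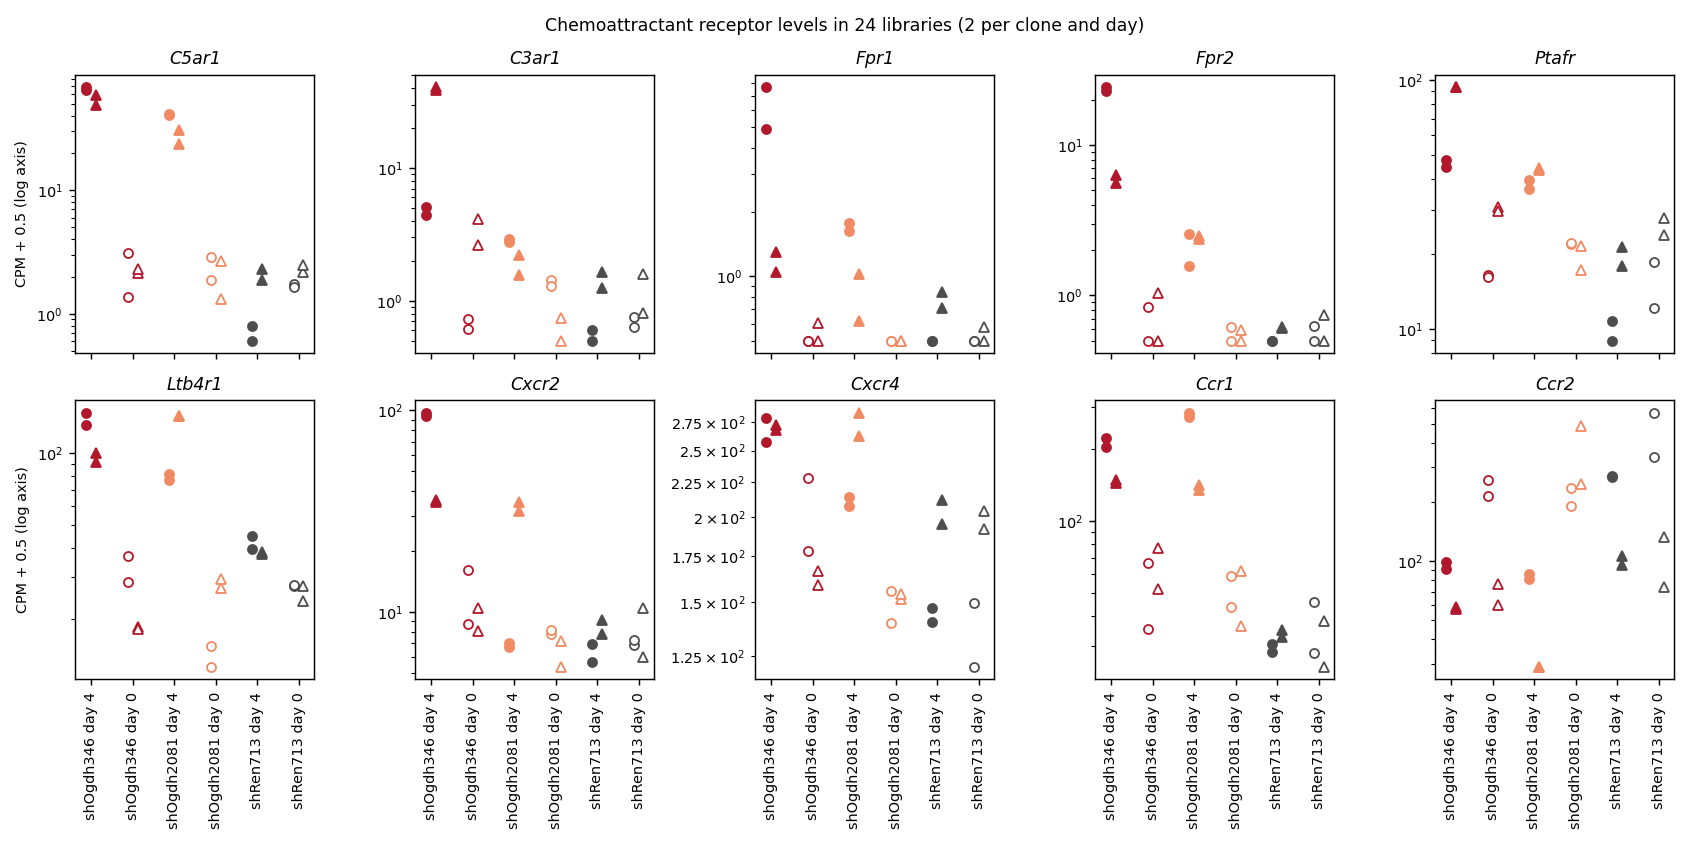
Level of each receptor in the 24 libraries, as CPM + 0.5 on a log axis, by hairpin and day; filled symbols are day 4, open symbols day 0, and circles and triangles are the 2 clones of a hairpin. For C5ar1, Fpr2, Ptafr, Ltb4r1 and Ccr1 every day 4 library with an Ogdh hairpin lies above every day 4 control library.

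The promoters of 3 receptors are shown because 2 of them, C3ar1 and Ltb4r1, were the only members with a match to a motif searched, and C5ar1 rose under all 38 alternatives and had no match. Each runs from 250 bases before to 50 bases after the RefSeq start on GRCm38.p6, 5′ to 3′ on the gene's strand, and capitals mark the match. C5ar1 lies at chr7:16259289-16259588 (minus strand), C3ar1 at chr6:122856108-122856407 (minus strand) and Ltb4r1 at chr14:55765712-55766011 (plus strand).
C5ar1: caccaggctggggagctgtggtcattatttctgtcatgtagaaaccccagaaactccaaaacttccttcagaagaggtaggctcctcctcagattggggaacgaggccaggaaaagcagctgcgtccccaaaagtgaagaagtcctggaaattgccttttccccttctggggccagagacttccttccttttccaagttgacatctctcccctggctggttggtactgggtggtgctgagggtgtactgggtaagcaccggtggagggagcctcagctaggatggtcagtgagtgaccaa
C3ar1: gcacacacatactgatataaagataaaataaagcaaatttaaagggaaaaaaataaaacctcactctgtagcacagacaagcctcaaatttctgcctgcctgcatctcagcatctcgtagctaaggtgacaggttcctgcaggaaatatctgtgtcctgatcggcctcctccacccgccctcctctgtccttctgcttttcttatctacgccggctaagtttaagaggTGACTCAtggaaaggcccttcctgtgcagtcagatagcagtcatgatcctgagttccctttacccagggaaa
Ltb4r1: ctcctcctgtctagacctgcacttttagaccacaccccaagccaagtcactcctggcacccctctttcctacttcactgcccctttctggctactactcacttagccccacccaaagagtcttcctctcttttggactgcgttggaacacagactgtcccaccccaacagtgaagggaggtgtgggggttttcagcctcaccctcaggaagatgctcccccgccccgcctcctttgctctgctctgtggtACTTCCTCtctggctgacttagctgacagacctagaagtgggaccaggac

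All 10 members had a promoter in the RefSeq table, and 5 motifs were searched on both strands. The AP-1 motif TGANTCA matched C3ar1 once, at position -22, and 7.81% of 32851 promoters held it. The PU.1 core GAGGAAGT matched Ltb4r1 once, on the opposite strand and beginning at position 1, and 3.2% of promoters held it. The C/EBP motif TTGCNNAA (10.8% of promoters), the EGR motif GCGTGGGCG (0.612%) and the NF-kB motif GGGNNTTCC (5.82%) matched no member. A match is a description of letters in these windows and not a site of binding, which was not measured.

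Among the complement receptors, C5ar1, the receptor for the anaphylatoxin C5a, was near silent in control cells and moderate with either Ogdh hairpin. At day 4 it had 67.9 and 64.3 CPM in clone 1 and 48.5 and 59.1 CPM in clone 5 of shOgdh346, and 41.2, 40.0, 23.1 and 30.2 CPM in clones 3 and 5 of shOgdh2081. The control libraries of that day had 0.105, 0.302, 1.80 and 1.38 CPM. At day 0 all libraries lay low, at 0.807 to 2.63 CPM with the Ogdh hairpins and 1.13 to 1.96 CPM with shRen713. All 8 Ogdh-hairpin libraries at day 4 thus stood above all others. The net change was 5.54 ± 0.49 (SE, adjusted p = 0.000156), and 4 of 4 Ogdh-hairpin clones were higher at day 4 while 0 of 2 control clones were. It was 6.01 ± 0.53 for shOgdh346 and 5.06 ± 0.52 for shOgdh2081.

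C3ar1, the receptor for C3a, also rose, but unevenly between clones. At day 4 clone 5 of shOgdh346 had 40.1 and 38.5 CPM, and clone 1 had 4.61 and 3.89 CPM. The clones of shOgdh2081 had 2.44, 2.25, 1.73 and 1.06 CPM, and the control libraries 0.105, 0, 0.742 and 1.15 CPM. Thus 1 control library overlapped the lowest shOgdh2081 library. Clone 5 of shOgdh346 was already the highest at day 0, at 3.65 and 2.14 CPM. The net change was 2.76 ± 0.75 (SE, adjusted p = 0.0176). It was not called with the day 0 libraries of replicate 1 alone, where it was 1.51 (adjusted p = 0.263), without shRen713 clone 2 (2.42, 0.0557) or clone 7 (4.86, 0.0812), without the day 0 replicate 2 library of clone 7 (2.21, 0.114), or without the clone block (2.75, 0.415). C3ar1 was called for shOgdh346, at 3.74 ± 0.78 (adjusted p = 0.00610), and not for shOgdh2081, at 1.78 ± 0.83 (adjusted p = 0.142); the difference between the hairpins, 1.97 ± 0.67, was not called (adjusted p = 0.399).

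The formyl peptide receptors, which sense N-formylated peptides of bacteria and mitochondria, were at or near 0 in control cells. Both passed the filter on low counts through the day 4 libraries with an Ogdh hairpin, so that their passing carries no weight of its own. Fpr1 had 7.18, 4.41, 0.799 and 0.548 CPM in the day 4 libraries of shOgdh346 and 1.27, 1.13, 0.531 and 0.118 CPM in those of shOgdh2081. The control libraries at day 4 had 0, 0, 0.212 and 0.346 CPM, and the lowest Ogdh-hairpin library lay among them. Summed over libraries there were 166 counts at day 4 with the Ogdh hairpins and 5 with shRen713, a depth-scaled ratio of 13.9 (95% interval of counting error alone, 5.82 to 43.3). With the Ogdh hairpins there was 1 count at day 0, a ratio of day 4 over day 0 of 155 (27.4 to 6144). The net change of 4.57 ± 2.78 missed the threshold (adjusted p = 0.242).

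Fpr2, which also binds lipoxin and annexin ligands, had more counts. At day 4 it had 22.4, 23.8, 5.06 and 5.81 CPM with shOgdh346 and 1.07, 2.06, 1.99 and 1.88 CPM with shOgdh2081. The control libraries of that day had 0, 0, 0.106 and 0.115 CPM, so the groups did not overlap. There were 653 counts with the Ogdh hairpins at day 4 against 2 with shRen713, a depth-scaled ratio of 136 (37.6 to 1128), and 10 counts with the Ogdh hairpins at day 0, a ratio of day 4 over day 0 of 60.8 (32.9 to 127). The net change of 6.06 ± 2.10 was called narrowly (adjusted p = 0.0492). With so few control counts the fitted value depends on the prior count, and the call was lost in 15 of 38 alternatives. The losses came with the day 0 libraries of replicate 1 alone; without clone 3 or clone 5 of shOgdh2081; without either control clone, where the net change was 5.36 without clone 2 and 9.16 without clone 7; and without any of 10 single libraries. Those libraries were shOgdh346 clone 1 day 0 replicate 2, shOgdh346 clone 5 day 0 replicate 1 and day 4 replicate 2, shOgdh2081 clone 3 day 0 replicate 1 and day 4 replicate 2, both day 0 libraries of shOgdh2081 clone 5, and the day 0 replicate 2 libraries of shRen713 clones 2 and 7 and the day 4 replicate 1 library of clone 7. The Fpr2 gene model overlaps Fpr3 on the same strand over 6101 bases, and 20.6% of the 76-base stretches of its transcript also occur in Fpr3 or Gm5966. Fpr3 had 0 counts in every library, and the rule for reads that fit several genes is not given in the sources used here, so the level of Fpr2 is uncertain.

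The lipid mediator receptors rose in all 4 Ogdh-hairpin clones. Ptafr, the receptor for platelet-activating factor, had 44.1, 47.1, 92.9 and 93.0 CPM at day 4 with shOgdh346 and 39.0, 36.1, 42.9 and 43.9 CPM with shOgdh2081. The control libraries had 10.3, 8.46, 17.4 and 20.8 CPM, all below. At day 0 it had 15.7 to 30.4 CPM with the Ogdh hairpins and 11.7 to 27.5 CPM with shRen713, and those groups overlapped. The net change was 1.83 ± 0.16 (adjusted p = 0.000113), with 4 of 4 Ogdh-hairpin clones higher at day 4 and 0 of 2 control clones. It was lost in 1 alternative, without the clone block (adjusted p = 0.0649).

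Ltb4r1 encodes the high-affinity receptor for leukotriene B4, a product of 5-lipoxygenase. It had 131, 146, 90.9 and 99.4 CPM at day 4 with shOgdh346 and 76.3, 81.0, 142 and 142 CPM with shOgdh2081, against 38.9, 44.3, 37.2 and 37.7 CPM with shRen713. The groups did not overlap. At day 0 it had 12.2 to 36.4 CPM with the Ogdh hairpins and 23.3 to 27.5 CPM with shRen713. The net change of 1.78 ± 0.11 (adjusted p = 2.44e-05) had the smallest adjusted p of the 10, and 4 of 4 Ogdh-hairpin clones and 2 of 2 control clones were higher at day 4. Ltb4r1 was also the one receptor called with the control hairpin, at 0.58 ± 0.09 from day 0 to day 4 (adjusted p = 0.0100). The same change was 2.28 ± 0.09 with shOgdh346 and 2.44 ± 0.09 with shOgdh2081. Far fewer genes were called with the control hairpin over all genes when either control clone or the clone block was left out. The count of receptors called with the control was 0 without shRen713 clone 2, 0 without clone 7 and 0 without the clone block.

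**Figure D2:**
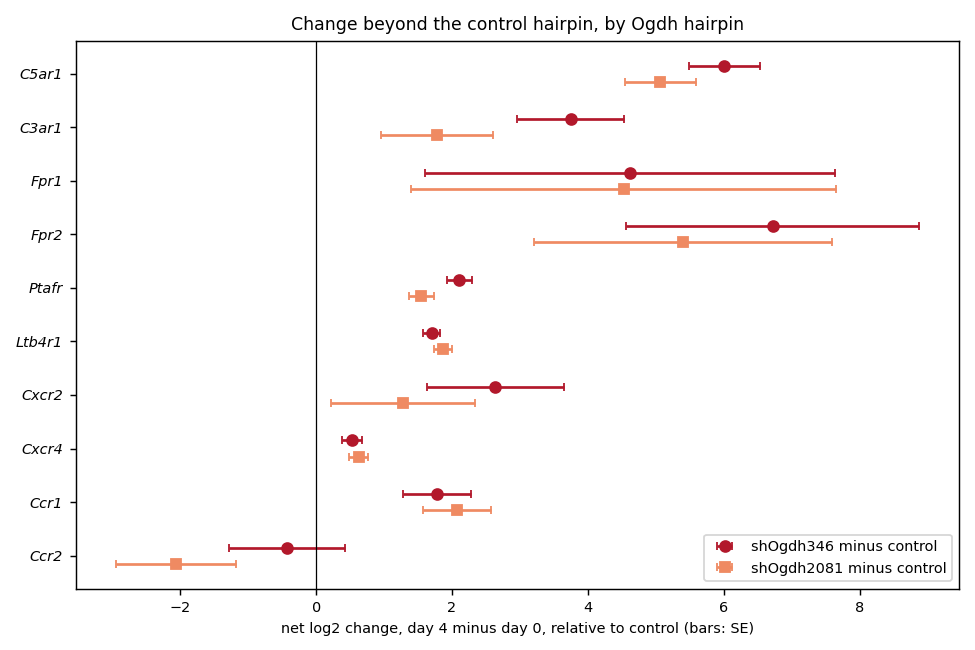
Net log2 change of each receptor for shOgdh346 (circles) and shOgdh2081 (squares), with bars of 1 SE from the edgeR fit. Ltb4r1, Ptafr and Cxcr4 have short bars that stay above 0, while Fpr1 and Fpr2 have the widest.

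Of the chemokine receptors, Ccr1, which binds Ccl3, Ccl6 and Ccl9 in the mouse, rose in the mean of both hairpins. At day 4 it had 221, 203, 148 and 144 CPM with shOgdh346 and 283, 273, 141 and 134 CPM with shOgdh2081. The control libraries had 28, 30.0, 34.7 and 32.2 CPM, and the groups lay far apart. The clones of shOgdh346 and shOgdh2081 already had 34.8 to 76.7 CPM at day 0, against 24.2 to 45.6 CPM in control clones. The net change was 1.93 ± 0.44 (adjusted p = 0.0239). The call was lost without shRen713 clone 2 (1.65, 0.211) or clone 7 (2.19, 0.141), without the day 0 replicate 1 library of shOgdh2081 clone 5 (1.84, 0.0544), and without the day 0 replicate 2 library of shRen713 clone 7 (1.81, 0.0569). Each hairpin alone was called narrowly, with a net change of 1.78 ± 0.50 for shOgdh346 (adjusted p = 0.0475) beside one of 2.08 ± 0.50 (adjusted p = 0.0372) for shOgdh2081, and those calls were lost in 20 and 14 of 38 alternatives, with net changes of 1.23 to 2.30 and of 1.62 to 2.52 over all of them.

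Cxcr4, the receptor for Cxcl12 that retains cells in the marrow, rose by the smallest amount among the 7 called. It had 278, 257, 272 and 267 CPM at day 4 with shOgdh346, 213, 207, 283 and 262 CPM with shOgdh2081, and 147, 140, 211 and 195 CPM with shRen713. The lowest 2 shOgdh2081 values, both from clone 3, lay within or just above the range of control clone 7. At day 0 the groups overlapped. The net change was 0.58 ± 0.12 (adjusted p = 0.00641). It lost its call, at about the same size, without shRen713 clone 2 (0.58, adjusted p = 0.0588) or clone 7 (0.55, 0.0770) and without the clone block (0.58, 0.167).

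Cxcr2, the receptor that draws neutrophils to Cxcl1 and Cxcl2, split by clone. At day 4 it had 93.5, 96.5, 35.6 and 34.8 CPM with shOgdh346, and 34.5 and 31.1 CPM in clone 5 of shOgdh2081. Clone 3 of shOgdh2081 had 6.20 and 6.57 CPM and the control libraries 6.41, 5.14, 8.59 and 7.27 CPM. Thus 3 of the 4 Ogdh-hairpin clones stood above the control and clone 3 of shOgdh2081 lay within its range. The change of log2(CPM + 0.5) from day 0 to day 4 was 3.10 and 1.93 in shOgdh346 clones 1 and 5, -0.23 and 2.44 in shOgdh2081 clones 3 and 5, and -0.18 and 0.13 in shRen713 clones 2 and 7. The net change of 1.96 ± 0.91 was not called (adjusted p = 0.165), it was 1.21 and not called without shOgdh2081 clone 5, and it was 2.59 and called without shOgdh2081 clone 3 (adjusted p = 0.00520). Ogdh itself was 68.5 and 70.9 CPM in that clone at day 4 and 32.3 to 58.0 CPM in the other 3 Ogdh-hairpin clones, and whether this bears on Cxcr2 was not tested.

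Ccr2, the receptor for Ccl2 on classical monocytes, was the one member with a negative net change, and its levels depended on the clone before any doxycycline. At day 4 it had 98.2, 90.6, 56.2 and 58.2 CPM with shOgdh346 and 85.6, 80.7, 28.5 and 28.6 CPM with shOgdh2081. The control libraries had 269, 268, 106 and 94.8 CPM. At day 0 it had 215, 258, 59.3 and 75.6 CPM with shOgdh346, 190, 235, 248 and 490 CPM with shOgdh2081, and 339, 566, 73.4 and 132 CPM with shRen713. The day 4 groups overlapped only through 1 library of shOgdh346 clone 1 and 1 of shRen713 clone 7. The net change was -1.25 ± 0.75 (adjusted p = 0.259), and Ccr2 was lower at day 4 in 4 of 4 Ogdh-hairpin clones and 1 of 2 control clones. Without shOgdh2081 clone 5 the net change was -0.72 and was not called, and without shOgdh2081 clone 3 it was -1.86 and was called (adjusted p = 0.0365).

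**Figure D3:**
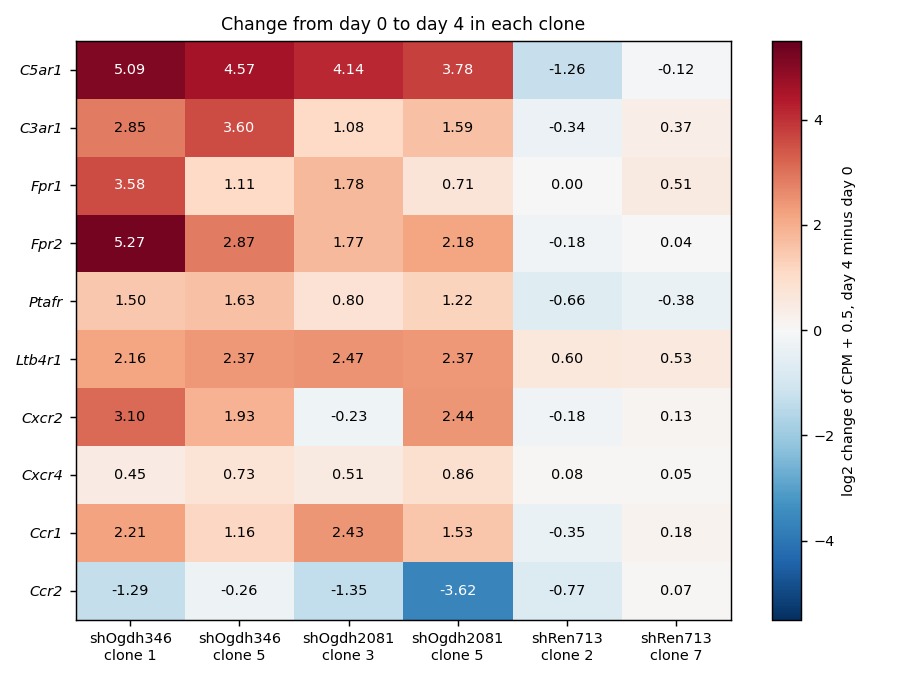
Change of log2(CPM + 0.5) from day 0 to day 4 for each receptor (rows) in each clone (columns); red is higher and blue is lower at day 4. C5ar1 and Ltb4r1 are high in all 4 Ogdh-hairpin clones, while Cxcr2 is near 0 in shOgdh2081 clone 3 and Ccr2 is lowest in shOgdh2081 clone 5.

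Within hairpins, 9 receptors were called higher at day 4 than at day 0 with shOgdh346, all but Ccr2 (30.2% of genes rose). With shOgdh2081, 8 rose and 1, Ccr2, fell (27.5% and 25.9%). Cxcr2 was the member not called with shOgdh2081. The receptors called higher with either Ogdh hairpin include Fpr1 and Fpr2. Those passed the filter on low counts only through the day 4 sums with an Ogdh hairpin. With the control, 1 rose (4.44%), and Ptafr was just short of a fall at -0.52 ± 0.13 (adjusted p = 0.0513). Set against the control, the net change was called for 7 receptors with shOgdh346 (16.4% of genes called higher) and for 5 with shOgdh2081 (13.6%), namely C5ar1, Ptafr, Ltb4r1, Cxcr4 and Ccr1. These comparisons share the control clones, so they are not independent. Fpr2, which passed the filter only in that way, is among the 7 called with shOgdh346. The counts were 4 and 3 when shRen713 clone 2 or clone 7 was left out, and 3 and 2 without the clone block. Under each of these settings far fewer genes were called over all genes as well, for either hairpin. Of the calls with shOgdh346, Ccr1 was lost in 20 of 38 alternatives, Fpr2 in 10, Cxcr4 in 7 and C3ar1 in 2. Of those with shOgdh2081, Ccr1 was lost in 14 and Cxcr4 in 4. Ptafr and Ltb4r1 were each lost in 1 with either hairpin, without the clone block.

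The hairpins were set against each other, to ask whether a receptor moved more with one. For none of the 10 was the difference called in edgeR (0.105% of genes were), 2 had an unadjusted p under 0.05, and DESeq2 called 0. Those 2 were C3ar1 (1.97 ± 0.67) and Ptafr (0.56 ± 0.17, adjusted p = 0.346), both higher with shOgdh346. At day 4 all libraries of shOgdh346 lay above all libraries of shOgdh2081 for C5ar1, C3ar1, Fpr2, Ptafr and Cxcr2, as they did for 8.38% of genes. A missed threshold does not show that the hairpins act alike, and the SE of these differences ran from 0.13 for Ltb4r1 to 1.92 for Fpr2.

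In levels at day 4, edgeR called 6 members higher with the Ogdh hairpins than with shRen713 (17.5% of genes), namely C5ar1, Fpr2, Ptafr, Ltb4r1, Cxcr2 and Ccr1. This count was 3 without shRen713 clone 2. Fewer genes were called over all genes without that clone too. Each clone enters the fit of levels at both days, so the degrees of freedom of that fit are overstated. For C5ar1, Fpr2, Ptafr, Ltb4r1 and Ccr1 all 8 Ogdh-hairpin libraries lay above all 4 control libraries, as did 16.8% of genes. Fpr2, in both of these sets, passed the filter on low counts only through the day 4 sums with an Ogdh hairpin. It thus carries no weight of its own in either. At day 0 none of the 10 was called (0% of genes), 0 had an unadjusted p under 0.05, DESeq2 called 0, and the libraries of all 10 overlapped between the Ogdh hairpins and shRen713, where 0.239% of genes were higher and 0.323% lower in every Ogdh-hairpin library.

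Per length of transcript, the order of levels at day 4 with the Ogdh hairpins was Cxcr4 (141 ± 16.7 CPM per kb, SD, n = 4 clones), Ltb4r1 (81.6 ± 23.6), Ccr1 (68.2 ± 22.8), C5ar1 (18.1 ± 6.34), Ptafr (15.2 ± 7.01), Cxcr2 (13.9 ± 12.2), Ccr2 (9.70 ± 4.26), Fpr2 (6.13 ± 7.89), C3ar1 (2.75 ± 4.29) and Fpr1 (1.46 ± 1.81). Ltb4r1 and Ccr1 did not differ beyond their spread, and the members from C5ar1 to Fpr2 overlapped with their neighbours. With shRen713 the order began with Cxcr4 (95.8 ± 23.8, n = 2 clones), Ltb4r1 (28.4 ± 2.07), Ccr2 (27.3 ± 17.5) and Ccr1 (11 ± 1.14). Ptafr (3.90 ± 1.88) and Cxcr2 (2.25 ± 0.514) came next, and C5ar1 (0.352 ± 0.385), C3ar1 (0.115 ± 0.146), Fpr1 (0.104 ± 0.148) and Fpr2 (0.0427 ± 0.0604) came last. Ccr2 thus stood above Ccr1 in control cells, within its spread, and below it with the Ogdh hairpins.

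**Figure D4:**
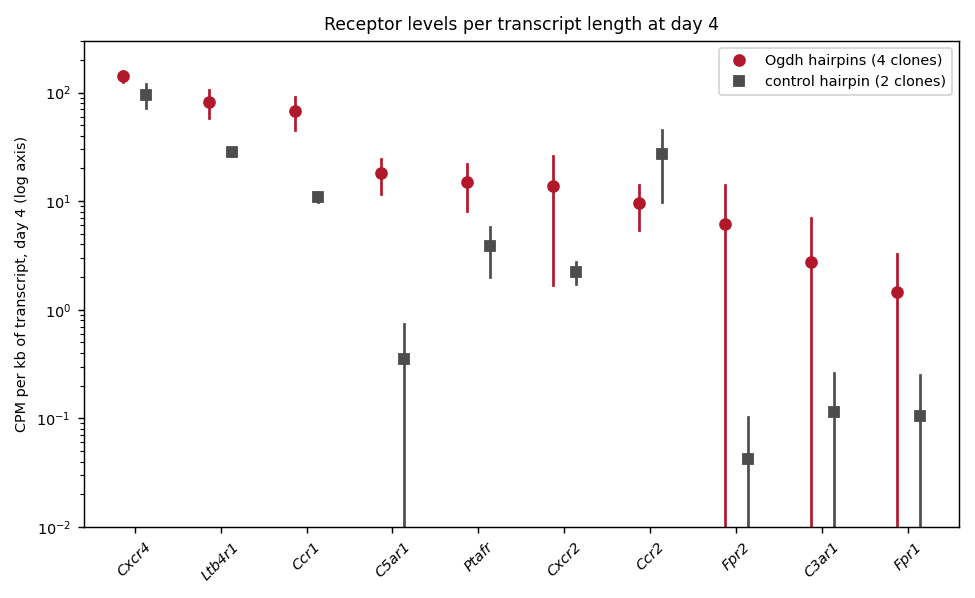
Level of each receptor at day 4 as CPM per kb of the deposited transcript length, on a log axis, for Ogdh-hairpin clones (left) and control clones (right), with points at the mean over clones and lines of 1 SD either way, drawn down to 0.01 where they would go lower. Cxcr4 is highest in both groups, and C5ar1, C3ar1, Fpr1 and Fpr2 fall below 1 CPM per kb in control clones.

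The 2 libraries of a clone differed more at day 0 than at day 4, and 5 receptors took part. At day 0 Fpr2, Cxcr2, Cxcr4, Ccr1 and Ccr2 were higher in replicate 2 than in replicate 1 in 6 of 6 clones, as were 15.7% of genes. The median difference was 0.68 on the log2 scale for Ccr1, 0.54 for Ccr2, 0.45 for Fpr2, 0.40 for Cxcr2 and 0.12 for Cxcr4. For Fpr2 every replicate 1 library at day 0 had 0 counts and the replicate 2 libraries had 1 to 5. The size of its difference is thus set largely by the 0.5 CPM added before the log. At day 4 only Cxcr4 was shifted in all clones, and it was lower in replicate 2 (4.76% of genes). The labels do not say what the replicate number marks. The net change of Ccr1 was 1.90 with replicate 1 alone at day 0 and 1.95 with replicate 2 alone.

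**Figure D5:**
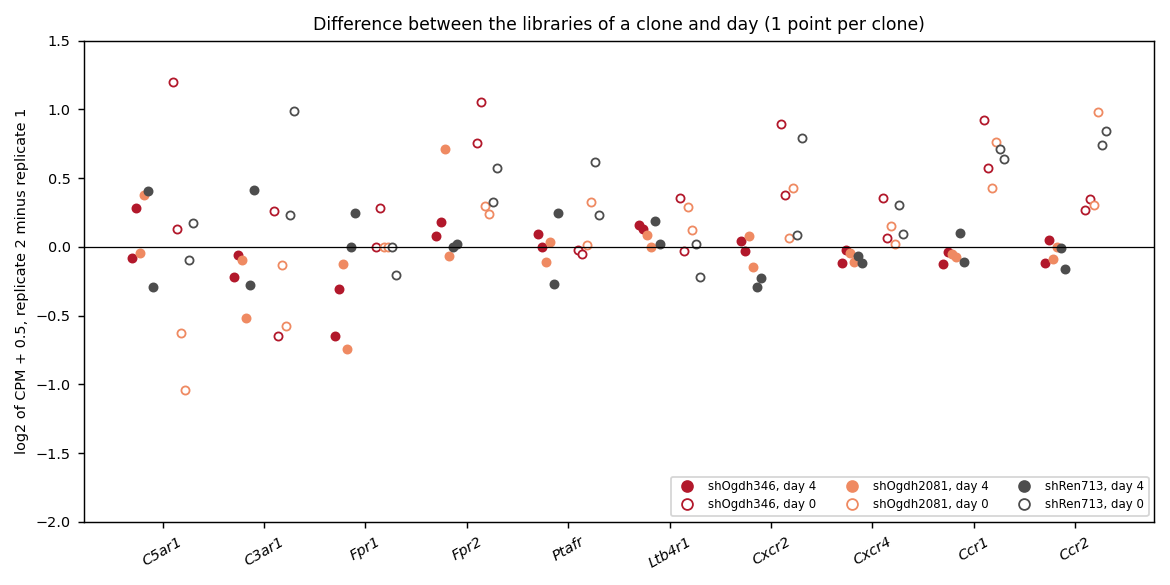
Difference of log2(CPM + 0.5) between replicate 2 and replicate 1 of each clone, for each receptor at day 4 and day 0, with 1 point per clone. At day 0 Ccr1 lies above 0 in all 6 clones.

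Genes whose pattern was most like each receptor were sought among genes with a mean of at least 5 CPM, over the 12 clone-and-day sums, which share clones and libraries. The nearest by Pearson's r were Gm15845 for C5ar1 (0.987), Lnpep for Ccr1 (0.989), Klf5 and Maml1 for Ltb4r1 (both 0.981), Emp1 for C3ar1 (0.978), Dhrs7 for Fpr2 (0.973), 2310001H17Rik for Cxcr4 (0.961), Trappc2l for Ptafr (0.960), Pstpip1 for Cxcr2 (0.959), Nt5dc1 for Ccr2 (0.938) and Map2k4 for Fpr1 (0.936). They are given as a description, with no test.

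Other genes of the pathway were read from lists, with net changes given as log2 ± SE. Of 37 other chemoattractant receptors 17 were tested, 8 rose and 3 fell, with a median net change of 0.99. Beside these list counts, 17.9% of all genes tested were called higher and 19.8% lower. Of those that rose, 2 passed the filter on low counts only through the day 4 sums with an Ogdh hairpin. S1pr4, a sphingosine phosphate receptor, rose (2.56 ± 0.22), as did the nucleotide receptor P2ry2 (0.79 ± 0.11), the second C5a receptor C5ar2 (3.17 ± 0.59) and Ccrl2 (2.26 ± 0.50). Gpr183, which follows oxysterols, fell (-2.46 ± 0.53). Ltb4r2, the low-affinity leukotriene B4 receptor, was 1 of those 2 (2.79 ± 0.65) and was low, at 1.12 ± 0.417 CPM at day 4 with the Ogdh hairpins and 0.263 ± 0.137 CPM with shRen713. Xcr1, 1 of the 3 that fell, had only 80 counts over the 24 libraries.

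Of 29 ligands and makers of lipid ligands 15 were tested, of which 14 rose and 1 fell, with a median of 2.05, and 2 of the 14 passed the filter only in the same way. The shares over all genes tested were 17.9% higher and 19.8% lower. Ccl6 rose by 4.35 ± 0.15, with 161 ± 43.9 CPM at day 4 with the Ogdh hairpins and 6.10 ± 4.05 CPM with shRen713. C3, the precursor of C3a, rose by 2.49 ± 0.11 and Camp, whose peptide is an Fpr2 ligand, by 2.49 ± 0.21. Anxa1, another Fpr2 ligand, rose by 1.98 ± 0.12. Alox5 and Alox5ap, which make leukotrienes, rose by 2.05 ± 0.15 and 1.05 ± 0.09. The one fall was Lpcat1 (-0.68 ± 0.14), picked out after its value was seen. Of 9 genes for removal of ligands 4 were tested and 3 rose: Pafah2 (0.46 ± 0.10), Cyp4f18 (0.69 ± 0.17), which inactivates leukotriene B4, and Ptgr1 (0.28 ± 0.09).

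Of 30 genes for Gi coupling and downstream signalling all were tested, of which 13 rose and 1 fell, with a median of 0.24. The shares over all genes tested were 17.9% higher and 19.8% lower. The kinases Lyn (1.01 ± 0.11) and Ptk2b (0.88 ± 0.10) rose, as did Rac2 (0.69 ± 0.10) and Gnaq (0.53 ± 0.10). Gnaq encodes a Gq rather than a Gi subunit. The Gi subunit genes Gnai2 (0.50 ± 0.10) and Gnai3 (0.40 ± 0.10) were called higher too. The kinase Fgr was also called (6.15 ± 0.83), but it passed the filter only through the day 4 sums with an Ogdh hairpin. Mapk14 was the fall (-0.34 ± 0.09), picked out after its value was seen. Of 14 genes for desensitization 12 were tested and 7 rose. Arrb2, which encodes an arrestin, had 497 ± 49.7 CPM at day 4 with the Ogdh hairpins and 177 ± 33 CPM with shRen713 (net 1.6 ± 0.14). Arrb1 (0.57 ± 0.09), Grk5 (2.58 ± 0.55), Rgs1 (2.29 ± 0.50), Rgs18 (0.45 ± 0.10) and Rgs14 (0.41 ± 0.09) also rose.

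Of 13 myeloid identity genes 7 rose and 3 fell, where 17.9% of all genes tested were called higher and 19.8% lower. Itgam (2.07 ± 0.11), Itgb2 (1.73 ± 0.13), Cd33 (1.86 ± 0.15) and Cebpe (1.42 ± 0.10) rose. The progenitor genes Kit (-1.03 ± 0.14), Mpo (-2.46 ± 0.32) and Elane (-1.32 ± 0.19) fell relative to the control. Csf1r (-0.48 ± 0.31), Csf3r (-0.10 ± 0.27) and Cebpa (-0.21 ± 0.16) were not called. Mpo went from 1457 ± 422 CPM at day 0 to 3793 ± 974 CPM at day 4 with shRen713 (SD over clones). With the Ogdh hairpins it went from 2007 ± 1512 to 1098 ± 1297 CPM. Its net change thus includes a rise in control clones. The genes that fell and those not called were named after their values were seen. Markers of other lineages were also read, as sums over each list. The summed megakaryocyte list had 19.4 to 75.3 CPM at day 4 with the Ogdh hairpins and 2.02 to 7.76 CPM with shRen713. Of its genes Itga2b rose with Ogdh knockdown, and Gp1bb was called but passed the filter only through the day 4 sums with an Ogdh hairpin. The mast cell and basophil list had 26.2 to 110 CPM against 10.5 to 18.9 CPM with Fcer1a and Cma1 at 0, and the eosinophil list 13.4 to 41.6 CPM against 7.16 to 10.2 CPM. The erythroid list had 0.932 to 3.28 CPM against 0.736 to 1.31 CPM, the B cell list 0.305 to 1.20 CPM against 0.202 to 0.318 CPM, and the T cell list 0.254 to 1.06 CPM against 0 to 0.421 CPM with Cd3e at 0. The NK cell list had 0.128 to 5.99 CPM against 0 to 0.806 CPM with Ncr1 at 0, the dendritic cell list 0.133 to 0.965 CPM against 0.907 to 5.41 CPM, and the stromal and endothelial list 259 to 402 CPM against 308 to 340 CPM, most of it Pecam1, with Col1a2 at 0. Of the tested genes of these lists, those called higher were 2 of 3 megakaryocyte, 1 of 2 eosinophil, 1 of 2 erythroid, 1 of 1 NK cell and 2 of 4 stromal genes, those called lower were 2 of 2 dendritic cell genes (Flt3 and Xcr1, the last also in the list of other receptors), and no mast cell, T cell or B cell gene was called. These marker counts are small and stand beside the same shares of 17.9% higher and 19.8% lower. The NK cell gene and 1 of the 2 stromal genes passed the filter only through the day 4 sums with an Ogdh hairpin. Xcr1 was near 0, at 0.150 ± 0.061 CPM at day 4 with the Ogdh hairpins and 0.273 ± 0.240 CPM with shRen713. At day 0 it had 0.559 ± 0.190 and 0.175 ± 0.154 CPM. It reached the filter's cutoff in 0 day 4 sums with an Ogdh hairpin and 2 other sums, so its call carries little weight. The 10 most abundant genes held 4.40% to 8.98% of counts at day 4 with the Ogdh hairpins and 3.63% to 4.18% with shRen713. The part of these markers and of that share in the receptor changes was not tested.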

How the data were processed

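Polyadenylated RNA was made into libraries and read as 76-base single ends, per the labels' protocols. What the authors deposited is a table of raw counts under Ensembl mouse gene identifiers. The submitters' processing notes name featureCounts 1.6.3, STAR 2.6.1a, Trimmomatic 0.36, FastQC 0.11.5 and the build GRCm38 (mm10), without roles or order. The extraction protocol names a human build and an RPKM matrix, which the deposited whole numbers under mouse identifiers contradict. The strand setting is not given in the sources used here, so antisense reads could not be separated. A transcript length per gene, another column the authors deposited, served for levels per kb only.

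Counts were summed over the 2 libraries that share a clone and a day (12 sums), filtered with filterByExpr (14249 genes), scaled by TMM and tested with edgeR 4.0.16 in R 4.3.3 (robust quasi-likelihood). Clones were blocks and each hairpin had its own day 4 term, with 3 residual and a median of 6.11 prior degrees of freedom. The labels tie a clone to both days, and deviations of clones from group means correlated between days at 0.60 to 0.89 across genes. Levels within a day used 6 groups and no block. SE is the log2 change divided by the square root of F. On simulated counts for the mean net change, 78% of genes changed by 1 and 91% of those changed by 2 on the log2 scale were recovered, with 17 false calls among 13558 genes. The changed genes, 100 of each size, were drawn from well-counted genes. No other gene was given a change, whereas 37.7% of genes were called in the data. These rates thus do not cover receptors near 0, such as Fpr1 and Fpr2.

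Library pairs differed by more than counting noise (chi-square per gene over genes with at least 20 counts of 1.6 to 10.3), so no pair was the same counts deposited again; whether the cultures were separate is not known. Intervals cover counting error only and are exact (Clopper-Pearson). Alternatives were DESeq2 1.42.0, RLE and total-count scaling, no filter, no block, unsummed libraries, day 0 replicates alone, and leaving out each clone and each library. The named genes are the 10 members, Ogdh, up to 6 genes per list by smallest p among those called, the nearest patterns, paralogues and overlapping genes; other genes named, such as those that fell and markers at 0, were picked after their values were seen. The members and lists were chosen with earlier results of these data known. Some genes of these lists are not reported here by name.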

Additional observations from a re-analysis of the deposited data

Results flagged for a closer look

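Of 59 groups of 4 libraries compared, 4 held a library whose gap to the others was large for the group's range, and chance gives about 1 such group in 20. All 4 were day 0 groups. Fpr1 had 0.107 CPM in the replicate 2 library of shOgdh346 clone 5 and 0.0765 CPM in the replicate 1 library of shRen713 clone 7, while the other libraries of each group had 0 counts. A group with counts in only 1 library is always flagged, so the rate of 1 in 20 does not apply to these Fpr1 groups. Ptafr had 16.7 CPM in the replicate 1 library of shOgdh2081 clone 5, below the 21.1 to 21.7 CPM of the other 3. Ltb4r1 had 23.3 CPM in the replicate 2 library of shRen713 clone 7, below the 27.1 to 27.5 CPM of the other 3.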

How the results depend on the processing

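None of 38 alternatives (37 for Fpr1, which was filtered out of the unsummed libraries) reversed a mean net change of a receptor. Without the clone as replicate block, the count of receptors called was 4 for the mean net change, against 7 with it, 3 for shOgdh346 against 7, 2 for shOgdh2081 against 5, 5 for the day change of shOgdh2081 against 9, and 0 for that of shRen713 against 1. Fewer genes were called over all genes without that block in each of these comparisons as well. With 24 unsummed libraries and the replicate block, 2 receptors differed between the hairpins and 2 were called with shRen713. In both comparisons that setting called far more genes over all genes than the main fit did, so the receptors were not alone in this. With no filter on low counts the fit gave infinite prior degrees of freedom. There 9 receptors were called for shOgdh2081, 3 differed between the hairpins and 3 were called with shRen713. More genes were called over all genes in each of these comparisons too, out of a larger number of genes tested. The count for shRen713 was 2 with DESeq2, with RLE scaling and with day 0 replicate 2 alone. Leaving out 1 clone or library gave counts of 3 to 8 for the mean net change, 4 to 7 for shOgdh346, 3 to 6 for shOgdh2081, 0 to 2 for shRen713, and 3 to 7 for the levels at day 4. For shRen713 the count of 2 came without shOgdh2081 clone 3 or 5, without the day 4 libraries shOgdh346 clone 1 replicate 1, shOgdh346 clone 5 replicate 1, shOgdh2081 clone 3 replicate 2, shOgdh2081 clone 5 replicate 2 or shRen713 clone 7 replicate 2, or without the day 0 library shOgdh2081 clone 5 replicate 1. The net change of Ccr2 with shOgdh346 ran from -0.94 to 0.086, the last without clone 1, and that of Cxcr2 with shOgdh2081 from -0.23, without clone 5, to 2.54. Cxcr2 and Ccr2 gained a call in the mean net change with unsummed libraries, with no filter and without shOgdh2081 clone 3. The causes were not tested. DESeq2 gave no adjusted p for 1 receptor result. With either control clone left out, far fewer genes were called over all genes in the mean net change. Leaving out either control clone left 3 of the 7 calls in the mean net change, and fewer than 10 control counts limit Fpr1 and Fpr2.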
